A study of Mus musculus with 34 samples.

Results

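The heat shock chaperones studied here are 10 genes of the cytosolic protein-folding machinery: Hspa1a, Hspa1b, Hspa8, Hspb1, Hsph1, Hsp90aa1, Hsp90ab1, Dnaja1, Dnajb1 and the transcription factor gene Hsf1. They were taken by gene symbol from a table of 14552 genes in 10 libraries of uninjected hearts and from a table of 17406 genes in 24 libraries of hearts injected with modified mRNA (modRNA) and their sham hearts. All 10 were listed in both tables and had a mean of at least 1 CPM (reads of a gene scaled to the size of its library) in each. No expression value was used to choose them, although earlier results of these data were known.

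All mice were CFW mice, and all samples were left ventricle. The uninjected hearts were 3 sham hearts (libraries D, H and I, titled as sham, with a stress label of no operation), 3 hearts 4 h post-MI (C, D and E) and 4 hearts 24 h post-MI (C, D, G and H). The infarct came from a lasting block of a coronary artery (the LAD) by suture. Per the methods, RNA of these 10 hearts came from the region that lost its blood supply, and from the matching region where no infarct was made. The modRNA hearts received, into the border zone and right after ligation, either a modRNA that the labels call AC or luciferase (Luc) modRNA as control, and they were collected at 4 h (4 AC and 4 Luc hearts), at 24 h (3 and 3; A, C and D) or at 48 h (4 and 4). These groups share a table with 2 hearts of sham operation without injection, labelled 4 hours. The labels do not say what AC stands for or which area of the ventricle was taken from the modRNA hearts. Nor do they say which mice were littermates, so the p-values below measure the spread between these libraries. Library titles take a different form at 48 h, at 24 h, and at 4 h and sham, so in this table a difference across times cannot be told apart from a difference between sets of libraries. AC and Luc hearts of a time share a form of title.

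Heat shock proteins are molecular chaperones that hold, refold or hand over proteins that have lost their shape. HSP70 proteins bind exposed stretches of a client under the control of J-domain partners and nucleotide exchange factors, HSP90 proteins act later on a narrower set of clients, and small heat shock proteins hold unfolding proteins without using ATP. Hsf1, the master regulator, is present before stress and is switched on mainly at the protein level, after which it binds arrays of short inverted units, alternately GAA and TTC, in front of the chaperone genes. In heart muscle these proteins are best known for their induction by ischemia and heat.

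The letters in front of the genes are shown first because Hsf1 is known to bind such units and because they show how alike Hspa1a and Hspa1b are. RefSeq promoters (build GRCm38.p6) were given for 6 of the 10 members, and the 250 bases before each start were searched for 2 units in either order, GAANNTTC and TTCNNGAA, each of which reads the same on both strands. Either motif was found for 5 of these 6 members, against 12.8% of 32851 promoters of this length (6.69% with GAANNTTC and 7.17% with TTCNNGAA). These rates are not alike, since members were counted by gene, some with several promoter entries, and the share was taken over entries. Hspa1a and Hspa1b are counted separately although their promoters are near-copies. A run of 3 alternating units was in 0 of the 10 promoter entries of the members and in 0.466% of all promoters. The matches are in capitals in these 30-base windows, read 5′ to 3′ on the strand of the gene, with the distance of the first capital before the start:
Hspa1a, 104 bases before the start (chr17:34972242-34972271, minus strand): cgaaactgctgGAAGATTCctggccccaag
Hspa1b, 104 bases before the start (chr17:34959324-34959353, minus strand): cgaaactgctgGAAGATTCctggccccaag
Hspb1, 117 bases before the start (chr5:135887791-135887820, plus strand): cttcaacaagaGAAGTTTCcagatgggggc
Hspb1, 97 bases before the start (chr5:135887811-135887840, plus strand): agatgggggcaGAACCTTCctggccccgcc
Dnaja1, 124 bases before the start (chr4:40722333-40722362, plus strand): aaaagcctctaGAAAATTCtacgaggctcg
Hsph1, 33 or 54 bases before its listed starts (chr5:149636351-149636380, minus strand): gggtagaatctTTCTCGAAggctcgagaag

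The windows of Hspa1a and Hspa1b are the same letter for letter, and over all 250 bases before the start 247 positions are identical. For Dnajb1, a J-domain partner of HSP70, neither motif was found in this window. A match is a description of letters and does not show that a factor was bound.

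The likeness of Hspa1a and Hspa1b extends into their transcripts and limits how well their values can be kept apart. The genes lie near each other on chromosome 17 (Hspa1a at 34969359 to 34972156 and Hspa1b at 34956429 to 34959238, GRCm38.p6), and of the 50-base stretches of their transcripts, the length of the reads, 39.7% for Hspa1a and 37.7% for Hspa1b occurred in no other annotated gene (GENCODE M21). The counting method of the authors divided a shared read among the genes it matched. The 2 rows are therefore given with their sum. Transcripts of Hspb1 (51.2% of stretches in no other gene), Hsp90aa1 (52.5%) and Hspa8 (61.4%) share stretches with pseudogenes, whereas Hsph1 and Hsf1 (100% each), Dnajb1 (99.6%), Hsp90ab1 (96.6%) and Dnaja1 (88.1%) were largely free of this.

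In uninjected hearts the inducible HSP70 genes rose at 4 h post-MI and rose again by 24 h, when 9 of the 10 members were higher than in sham hearts, in a comparison that called 35.6% of all genes tested higher and 30.3% lower. Hspa1a and Hspa1b changed most, followed by Hspb1 (HSP27 family), Hsp90aa1 (inducible HSP90) and Dnajb1. The constitutive members Hspa8 and Hsp90ab1 changed by smaller ratios than these, and so did Dnaja1 and Hsph1. At 4 h no change was detected for Hspa8, Hsp90ab1, Dnaja1, Hsph1 or Hsp90aa1. Hsf1 mRNA was at a like level in all 3 groups.

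Hspa1a stood at 4.20, 1.80 and 0.994 CPM in the sham hearts, at 24.1, 26.7 and 25.5 CPM 4 h post-MI, and at 256, 415, 274 and 254 CPM 24 h post-MI. Hspa1b, its near-copy, stood at 3.60, 1.78 and 1.09 CPM in sham hearts, at 24.7, 24.1 and 39.7 CPM at 4 h, and at 387, 405, 328 and 216 CPM at 24 h. For neither gene did any 2 of the groups overlap. Summed, they gave 4.49 CPM in sham hearts (SD 2.97, n = 3), 54.9 CPM 4 h post-MI (SD 8.96, n = 3) and 633 CPM 24 h post-MI (SD 144, n = 4), which is 12.2 times the sham mean at 4 h and 141 times at 24 h. On the log2(CPM + 1) scale used for all tests the sum rose by 3.47 at 4 h (standard error 0.32, limma adjusted p = 0.00012) and by 6.96 at 24 h (standard error 0.30, limma adjusted p = 5.5e-08). Since 1 is added to the value, this scale understates changes of genes as low as these were in sham hearts.

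**Figure D1:**
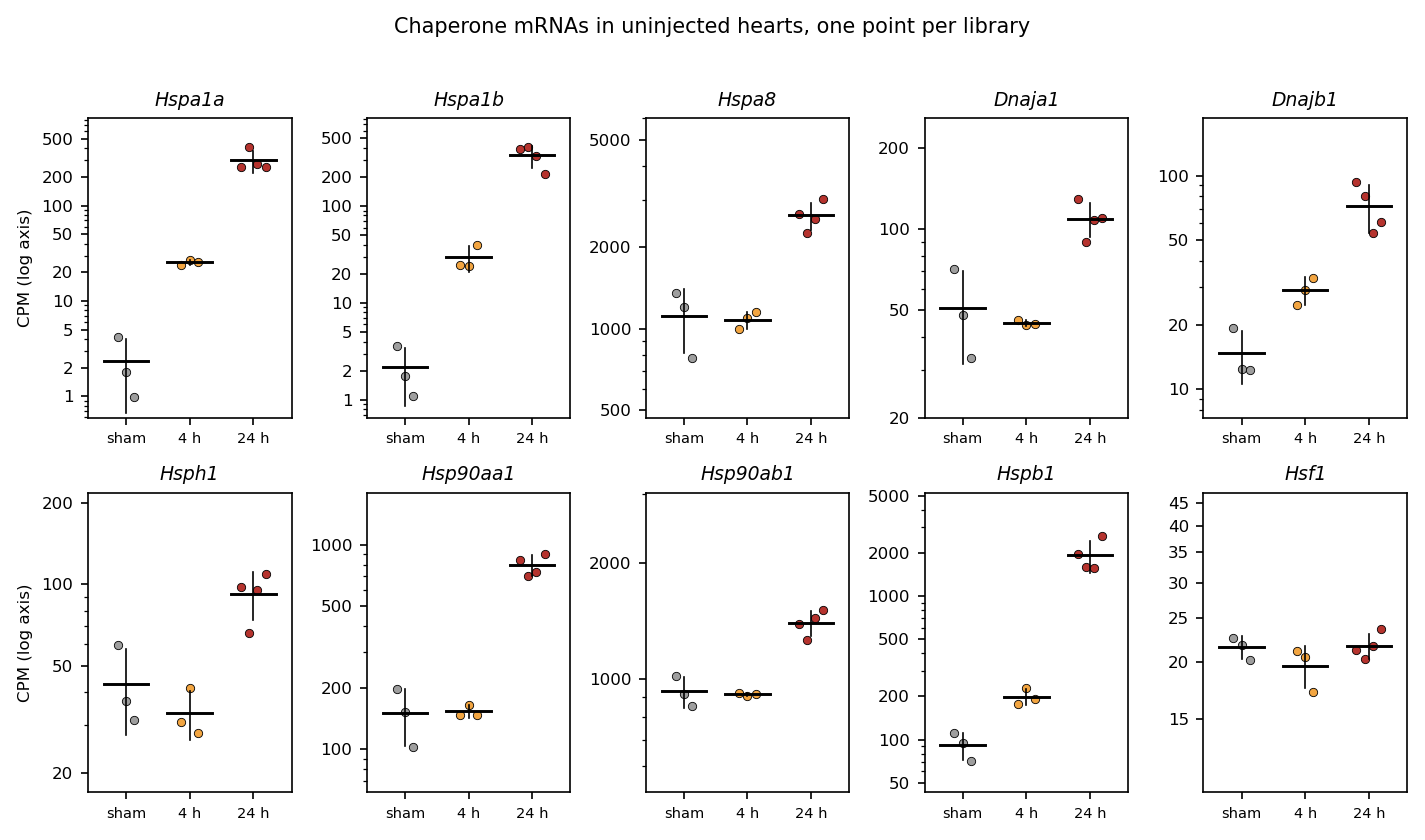
CPM of the 10 genes (log axis) in uninjected sham hearts and hearts 4 h and 24 h post-MI; each point is a library, thick bars are means and thin lines are SDs. At 24 h 9 of the 10 genes were called higher than in sham hearts by limma, and for Hsf1 the groups overlap. Of all genes tested, 35.6% were called higher at 24 h than in sham hearts.

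Hspb1, a small heat shock protein that also binds the actin cytoskeleton, gave the next largest change. Its level was 111, 94.5 and 71.5 CPM in sham hearts, 177, 227 and 193 CPM at 4 h, and 1962, 1603, 1563 and 2616 CPM at 24 h. Again no groups overlapped. The change from sham was 1.12 at 4 h (limma adjusted p = 0.019) and 4.37 at 24 h (limma adjusted p = 6.5e-08, 21 times the sham mean). With a library left out, the adjusted p at 4 h was above 0.05 in 5 of 10 fits, those without library C, D or E of the 4 h hearts or without sham library H or I.

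Dnajb1, the J-domain partner that feeds clients to inducible HSP70, stood at 19.4, 12.4 and 12.2 CPM in sham hearts, at 24.7, 29.2 and 33.3 CPM at 4 h, and at 93.1, 80.5, 53.7 and 60.6 CPM at 24 h. All hearts post-MI were above all sham hearts. The increase of 0.96 at 4 h (limma adjusted p = 0.049) was near the threshold and was not called without a trend, without a filter on low values, after either rescaling, or in 7 of 10 fits with a library left out (any 4 h library, sham library H or I, 24 h library D or H). At 24 h the increase was 2.22 (limma adjusted p = 4.5e-06).

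Dnaja1, a J-domain partner acting with Hspa8, was at 71.5, 48.1 and 33.3 CPM in sham hearts, 46.2, 44.0 and 44.5 CPM at 4 h, and 129.7, 90.1, 108 and 111 CPM at 24 h. Its values at 4 h lay inside the sham range, and those at 24 h were all above it. The change was -0.11 at 4 h (95% interval -0.60 to 0.37) and 1.15 at 24 h (limma adjusted p = 0.00050). Hsph1 (HSP110), a nucleotide exchange factor of HSP70, went from 59.6, 36.9 and 31.4 CPM in sham hearts through 30.8, 41.2 and 28.2 CPM at 4 h to 97.9, 65.9, 95.7 and 109 CPM at 24 h. Its change was 1.12 at 24 h (limma adjusted p = 0.0011) and, at 4 h, -0.31 with an interval of -0.84 to 0.22.

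Hsp90aa1, the inducible HSP90, was at 196, 152 and 103 CPM in sham hearts, 147, 165 and 147 CPM at 4 h, and 846, 705, 739.6 and 897 CPM at 24 h. The hearts at 4 h lay within the sham range, and all 4 at 24 h were far above both groups. The change was 0.08 at 4 h (95% interval -0.36 to 0.51) and 2.44 at 24 h (limma adjusted p = 1.2e-06, 5.31 times the sham mean). Its constitutive counterpart Hsp90ab1 stood at 931 CPM in sham hearts (SD 84.6, n = 3), 916 CPM 4 h post-MI (SD 7.38, n = 3) and 1400.2 CPM 24 h post-MI (SD 104, n = 4), an increase at 24 h of 0.59 (limma adjusted p = 0.0011). Hspa8 (HSC70), the HSP70 of unstressed cells, was at 1355, 1200.3 and 782 CPM in sham hearts, 996, 1095 and 1149 CPM 4 h post-MI, and 2667, 2271, 2557 and 3010.0 CPM 24 h post-MI. All 4 hearts at 24 h exceeded all others, with a change of 1.27 (limma adjusted p = 0.00013).

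Hsf1 was the exception. It stood at 22.7, 21.9 and 20.3 CPM in sham hearts, 21.2, 20.5 and 17.2 CPM at 4 h, and 21.3, 20.4, 21.7 and 23.7 CPM at 24 h. The groups overlapped, and the change at 24 h was 0.01 with an interval of -0.21 to 0.23 (limma adjusted p = 0.94).

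At 4 h, then, 4 members were called higher and 0 lower, in a comparison in which limma called 1.55% of the 12487 genes tested higher and 0.817% lower at an adjusted p under 0.05. At 24 h, 9 members were called higher and 0 lower, against the shares of 35.6% and 30.3% of all genes given above. The median change of the 10 members was 0.03 at 4 h and 1.74 at 24 h, against -0.03 and 0.04 over all genes tested. Both comparisons share the sham hearts. Between 24 h and 4 h, tested directly, 9 members were higher at 24 h and 0 lower (37.2% and 26.7% of all genes), from 0.61 for Hsp90ab1 to 3.48 for Hspa1a, and Hsf1 was not called (0.14, interval -0.08 to 0.36). With equal-total rescaling the share of higher genes among all calls at 4 h was 48.8% in place of 65.5%. The calls of the members at 24 h did not change with the pseudocount, the filter on low values, the trend, array weights, either rescaling or any library left out. A block by replicate letter, which rests on 2 shared letters per comparison, ended the calls of Hsp90ab1 against sham and against 4 h.

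**Figure D2:**
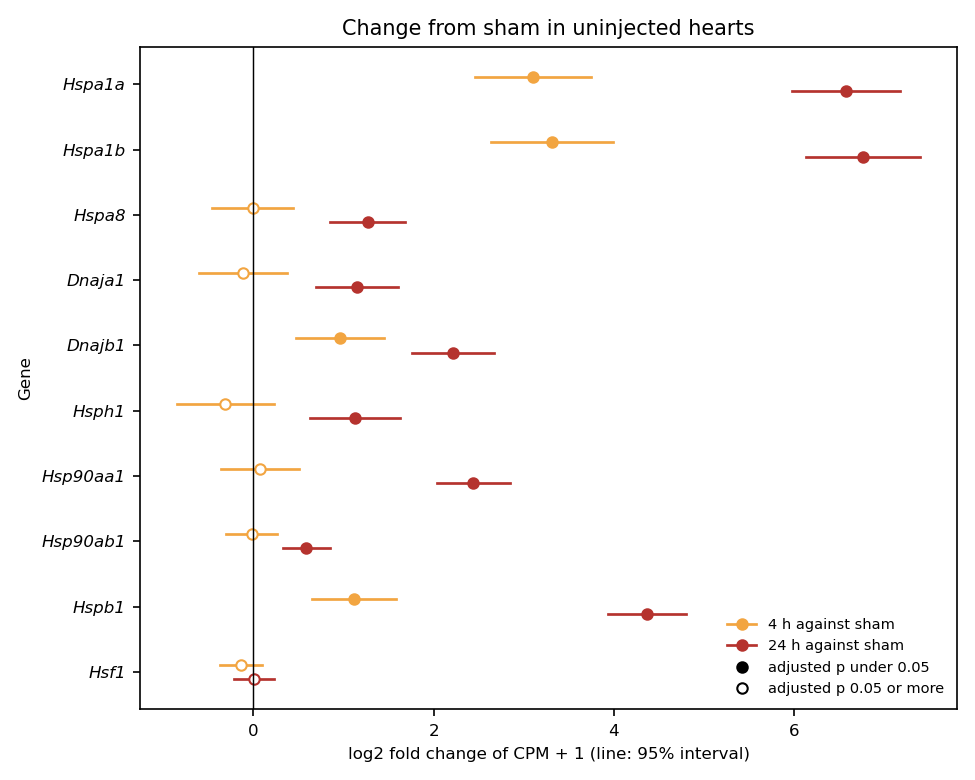
Change from sham of the 10 genes in uninjected hearts (log2 fold change of CPM + 1, with 95% limma intervals) at 4 h and 24 h post-MI; filled points have an adjusted p under 0.05. At 24 h the values run from 0.01 for Hsf1 to 6.77 for Hspa1b, and only Hsf1 is open.

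Other gene groups changed after MI too, in both directions. In bulk tissue fewer cells of a type and less RNA per cell cannot be told apart. The summed level of 8 cardiomyocyte markers was 48004 to 51283 CPM in sham hearts, 47472 to 51547 CPM 4 h post-MI and 20873 to 35358 CPM 24 h post-MI, when 4 of the 8 were lower and 0 higher than in sham hearts. Summed over 8 neutrophil markers the range was 2.26 to 3.58 CPM in sham hearts, 14.3 to 48.1 CPM 4 h post-MI and 428 to 2169 CPM at 24 h, and 8 of 8 were higher at 24 h. Of 7 macrophage markers 3 were higher and 0 lower at 24 h, of 5 fibroblast markers 0 were higher and 2 lower, of 5 endothelial markers 1 was higher and 2 lower, and of the 2 atrial markers tested 1 was higher. All 6 immediate early genes were higher than in sham hearts at both times, but from 4 h to 24 h 4 of them fell and 0 rose. Myl7, the fourth atrial marker, was not listed in this table, no listed marker was at 0 in any group, and the part of these cells in the members' changes was not tested.

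The sham hearts themselves differed in these genes. Sham library D had the highest value and library I the lowest of the 3 for 10 of 10 members, with library H between them, an order that held for 27.4% of the genes tested. Library D had 4.20 CPM of Hspa1a against 0.994 CPM in library I, and 22.7 CPM of Hsf1 against 20.3 CPM. The CPM summed over all listed genes had the same order, 633180 in D, 599453 in H and 571617 in I. Its part in the order of the members was not tested.

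Among the partners of these chaperones, the calls at 24 h went both ways for HSP90 and 1 way for several other compartments. Of 13 HSP90 co-chaperones, 4 were higher and 5 lower than in sham hearts. That split is near the one over all genes tested, 35.6% higher and 30.3% lower. Fkbp4, an immunophilin of the HSP90 machine in steroid receptor folding, went from 249.6 ± 8.41 to 106 ± 14.5 CPM (log2 fold change -1.23, limma adjusted p = 4.2e-06), and Unc45b, the myosin-folding partner of HSP90 in muscle, from 152 ± 18.3 to 83.2 ± 14.8 CPM (-0.87, limma adjusted p = 0.00017). Fkbp5, a glucocorticoid-responsive relative of Fkbp4, went from 15.9 ± 16.2 to 73.3 ± 35.6 CPM (2.45, limma adjusted p = 0.0026). Of 18 other HSP70s and their partners 8 were higher and 1 lower, the latter being the HSP110 relative Hspa4l (-0.79, limma adjusted p = 0.0036).

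All 8 subunits of the cytosolic chaperonin CCT were higher at 24 h (median change 1.18), as were all 10 endoplasmic reticulum chaperones (median 1.46), led by Sdf2l1, from 2.97 ± 0.992 to 28.2 ± 8.04 CPM (2.87, limma adjusted p = 1.8e-06). Of 6 other small heat shock proteins of muscle 5 were higher, among them the lens and muscle crystallin Cryab, from 1073 ± 35.7 to 4907 ± 1291 CPM (2.16, limma adjusted p = 2.8e-06). Of 7 mitochondrial chaperones and proteases 1 was higher and 2 lower, and of Hsf2, Hsf4 and the HSF-binding gene Hsbp1, 1 was higher. At 4 h 0 of the 65 genes of these 7 lists were called by limma, and 3 had an unadjusted p under 0.05. Measured from 4 h, the 24 h hearts gave the same counts for CCT, the endoplasmic reticulum, the small heat shock proteins, HSP90 partners and mitochondria, and 7 higher and 2 lower HSP70 partners, with Hyou1, the HSP110 relative of the endoplasmic reticulum, at 2.08 (limma adjusted p = 8.7e-07) and the HSP90 partner Cdc37l1 at -0.65 (limma adjusted p = 0.0018).

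The genes whose levels most resembled the sum of Hspa1a and Hspa1b over the 10 uninjected libraries were Adamts4, an aggrecan-cleaving protease (Pearson r = 0.995 among 7685 genes), Mafk, a small Maf transcription factor (0.991), Emp1, a membrane protein (0.990), Ifrd1, an interferon-related regulator (0.989), and Ppp1r15a (GADD34), the stress-induced subunit that directs dephosphorylation of eIF2 alpha (0.987). Ppp1r15a ran from 21.5 to 24.0 CPM in sham hearts, 64.6 to 82.7 CPM 4 h post-MI and 161 to 266 CPM 24 h post-MI. These r describe 3 groups set far apart in time after MI and carry no p.

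In modRNA hearts the inducible HSP70 genes were also well above sham at 4 h, yet at 24 h they were not above their 4 h level. This table was normalized on its own and is not tested against the uninjected hearts. In it the 2 sham hearts had 0.544 and 1.14 CPM of Hspa1a, and the Luc hearts had 25.2, 40.1, 15.6 and 42.3 CPM at 4 h, 36.3, 6.67 and 8.60 CPM at 24 h, and 5.33, 3.14, 27.2 and 5.58 CPM at 48 h (replicates 1 to 4). Hspa1b had 0.349 and 0.719 CPM in sham hearts, 17.9, 28.3, 14.3 and 30.6 CPM in Luc hearts at 4 h, 24.9, 5.82 and 7.07 CPM at 24 h, and 6.34, 2.73, 38.3 and 7.29 CPM at 48 h. Every Luc heart lay above both sham hearts, and at 24 h and 48 h a single Luc library, A and 3, lay far above the others. The sum was 1.38 CPM in sham hearts, 53.6 CPM in Luc hearts at 4 h (SD 20.6, n = 4), 29.8 CPM at 24 h (SD 27.2, n = 3) and 24.0 CPM at 48 h (SD 27.8, n = 4).

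Against sham, the sum in Luc hearts was higher by 4.46 at 4 h (standard error 0.71, limma adjusted p = 0.0010), by 3.37 at 24 h (0.75, limma adjusted p = 0.0016) and by 2.85 at 48 h (0.71, limma adjusted p = 0.0043). With sham replicate 1 left out, so that the remaining sham heart is assumed to vary like the other groups, Hspa1a and Hspa1b were not called at 4 h (limma adjusted p = 0.084 and 0.10), at 24 h (0.059 and 0.063) or at 48 h (0.14 and 0.067), although the changes stayed between 1.96 and 3.79. Hspa1a at 48 h was also not called without sham replicate 2 (limma adjusted p = 0.056) or Luc 48 h replicate 3 (0.064), and with array weights neither gene was called at 48 h, nor Hspa1a at 24 h. From 4 h to 24 h the sum in Luc hearts changed by -1.09 (interval -2.39 to 0.20) and from 24 h to 48 h by -0.52 (interval -1.81 to 0.78), neither beyond the spread between libraries. In the uninjected hearts the sum at 24 h was 11.5 times that at 4 h. The labels do not say whether the same area of the ventricle was taken for both tables.

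**Figure D3:**
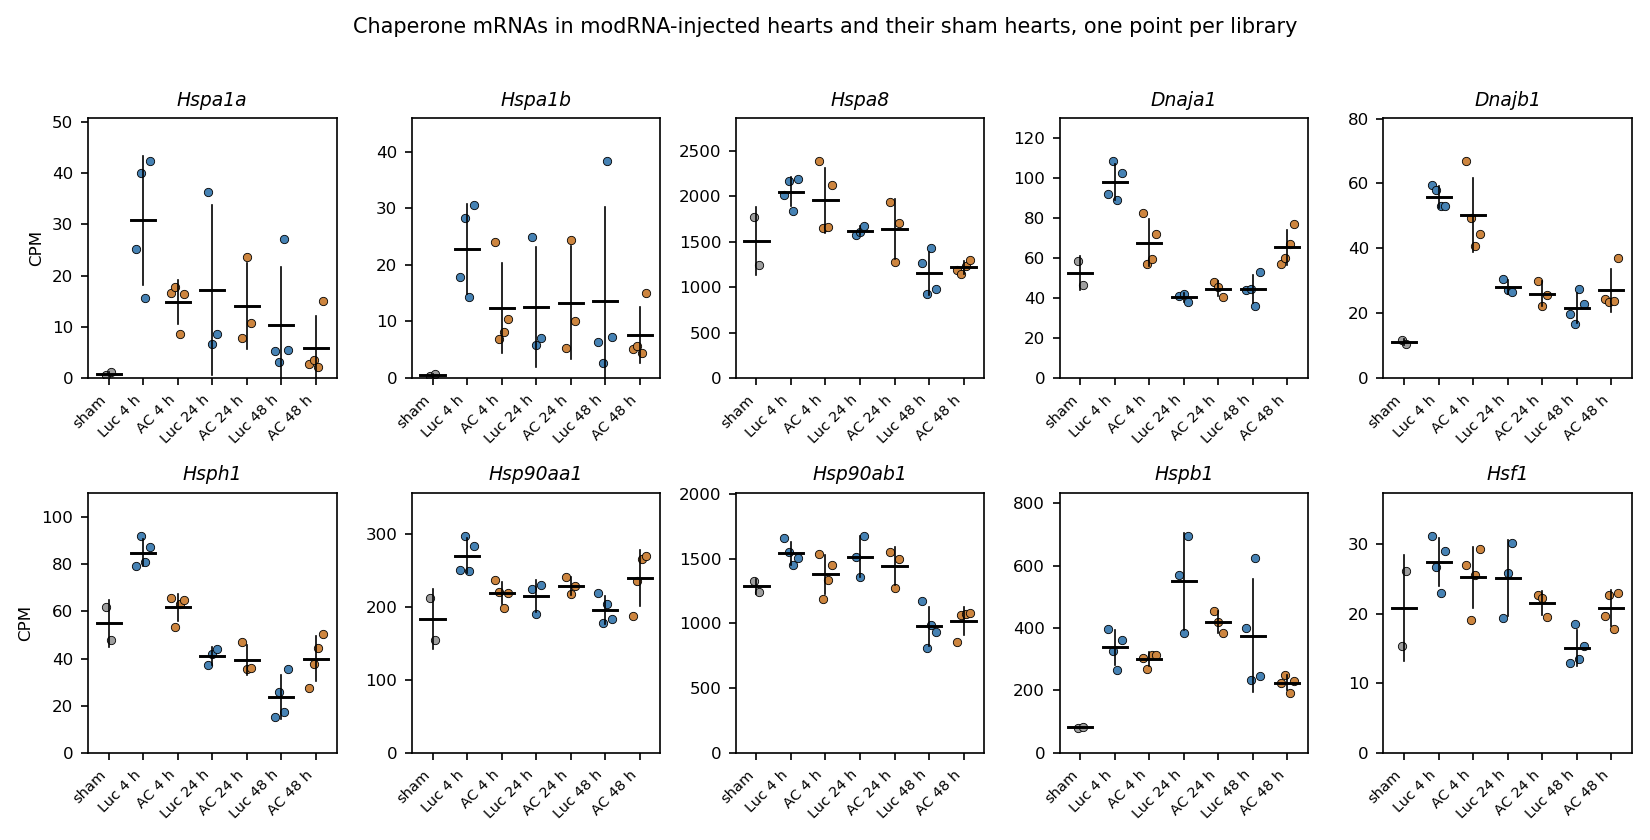
CPM of the 10 genes (linear axes from 0) in the second table: sham hearts, then Luc and AC modRNA hearts at 4, 24 and 48 h post-MI; each point is a library, thick bars are means, and thin lines are SDs, which stop at 0. Hspa1a, Hspa1b, Dnajb1 and Hspb1 lie above sham in all injected hearts, and Dnaja1 and Hsph1 are highest in Luc hearts at 4 h. Only 2 sham hearts set this bound, and the share of all genes above them in this way is not given.

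The increase of Hspb1 over sham was called at all 3 times in every alternative and with any library left out. It stood at 80.8 and 82.7 CPM in sham hearts, at 396, 326, 266 and 363 CPM in Luc hearts at 4 h, at 571, 385 and 695 CPM at 24 h, and at 401, 234, 624 and 247 CPM at 48 h. All Luc hearts lay above both sham hearts, and the Luc groups overlapped with each other. The change from sham was 2.02 at 4 h (limma adjusted p = 0.00017), 2.69 at 24 h (7.8e-07) and 2.07 at 48 h (1.3e-05).

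Dnajb1 was highest in Luc hearts at 4 h. It stood at 11.9 and 10.6 CPM in sham hearts, at 59.5, 58.1, 53.1 and 53.0 CPM in Luc hearts at 4 h, at 30.5, 27.2 and 26.6 CPM at 24 h, and at 19.9, 16.5, 27.6 and 22.8 CPM at 48 h. Each Luc heart was above both sham hearts, and the 4 h hearts were above all later Luc hearts, whereas the 24 h and 48 h hearts overlapped (-0.38, limma adjusted p = 0.093). The change from sham was 2.22 at 4 h (limma adjusted p = 1.2e-06), 1.25 at 24 h (0.00015) and 0.87 at 48 h (0.0028). At 48 h it was not called with array weights or with the replicate number as a block.

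Dnaja1 had 58.3 and 46.4 CPM in sham hearts and 92.1, 108, 88.9 and 102 CPM in Luc hearts at 4 h, a change of 0.89 (limma adjusted p = 0.0044, or 0.067 without sham replicate 2). At 24 h the Luc hearts had 41.2, 41.9 and 38.0 CPM, below both sham hearts, and at 48 h 44.2, 44.3, 35.9 and 53.1 CPM. Neither later group was called against sham, with changes of -0.36 (interval -0.73 to 0.01) and -0.24 (interval -0.59 to 0.11), although after either rescaling Dnaja1 was called lower at 24 h (limma adjusted p = 0.015 and 0.0088). Hsph1 had 62.1 and 47.8 CPM in sham hearts, 79.4, 92.0, 81 and 87.3 CPM in Luc hearts at 4 h, 37.1, 42.1 and 44.3 CPM at 24 h, and 15.2, 25.9, 17.4 and 35.8 CPM at 48 h. It lay above sham in all 4 Luc hearts at 4 h (0.63, limma adjusted p = 0.25) and below sham in all 4 at 48 h, where it was lower by the test (-1.25, limma adjusted p = 0.00066).

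The remaining members showed smaller differences from sham. Hsp90aa1 stood at 212 and 154 CPM in sham hearts and, in Luc hearts, at 250.4, 297, 249 and 283 CPM at 4 h, 225, 189.9 and 230.1 CPM at 24 h, and 219, 178, 204 and 182 CPM at 48 h. Its 4 h hearts lay above every other heart of these groups. Hsp90aa1 changed by 0.57 at 4 h (limma adjusted p = 0.069), and Hsp90ab1 by -0.41 at 48 h (limma adjusted p = 0.0498), a call at the threshold that was not made in 19 of 24 fits with a library left out. Hspa8 stood at 1772 and 1244 CPM in sham hearts and, in Luc hearts, at 2012, 2166, 1833 and 2183 CPM at 4 h, 1574, 1605 and 1671 CPM at 24 h, and 1259, 926, 1433 and 981 CPM at 48 h. All 4 Luc hearts at 4 h were above both sham hearts, and the later groups overlapped with them. Hspa8 changed by 0.46 at 4 h, by 0.12 at 24 h and by -0.39 at 48 h, and Hsf1 by 0.42, 0.29 and -0.41, none with an adjusted p under 0.05.

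Counted together, 5 members were higher and 0 lower than sham at 4 h in Luc hearts (1.25% of 12555 genes tested higher, 0.295% lower), 4 higher and 0 lower at 24 h (25.3% and 8.79%), and 4 higher and 2 lower at 48 h (13.7% and 16.4%). The median change of the members was 0.76, 0.26 and -0.06, against 0.02, 0.16 and -0.03 over all genes. Both sham hearts are shared by the 3 comparisons. Among all calls the share of higher genes depended on the scaling: 80.9% at 4 h against 70.2% with equal totals, 74.2% at 24 h against 53.4% with median ratios and 42.5% with equal totals, and 45.4% at 48 h against 66.1% with equal totals.

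Between times in Luc hearts, 1 member was higher and 3 were lower at 24 h than at 4 h (24.5% of all genes higher, 7.8% lower). Those lower were Dnaja1 (-1.25, limma adjusted p = 3.0e-06), Hsph1 (-1.03, limma adjusted p = 0.0012) and Dnajb1 (-0.97, limma adjusted p = 0.00040), and in each the groups did not overlap. Hspb1 was higher by 0.68 (limma adjusted p = 0.037), a call not made after either rescaling or without Luc 4 h replicate 2, 3 or 4 or Luc 24 h replicate A or D (0.49 to 0.72). Between 48 h and 24 h, 0 members were higher and 5 lower (9.32% and 32.6%): Hsph1 (-0.85, limma adjusted p = 0.0036), Hsf1 (-0.69, 0.0048), Hsp90ab1 (-0.64, 0.00097), Hspb1 (-0.62, 0.043) and Hspa8 (-0.51, 0.021).

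These falls from 24 h to 48 h rest on the scaling. The median over all genes moved by -0.25 in this comparison, by -0.02 after median-ratio rescaling and by 0.18 after equal-total rescaling, and the share of higher genes among all calls went from 22.3% to 49.7% and 77.5%. With equal totals none of the 5 was called, from -0.39 for Hsph1 to -0.03 for Hspa8, whereas Dnaja1 (0.59, limma adjusted p = 0.0055) and Hsp90aa1 (0.35, limma adjusted p = 0.042) were then higher. With median ratios Hsp90ab1, Hsph1 and Hsf1 were still lower, and Hspb1 and Hspa8 were not called. Both also lost the call with only the compared groups, and without Luc 24 h replicate D, Luc 48 h replicate 2 or Luc 48 h replicate 4, as did Hspb1 without Luc 4 h replicate 2, Luc 24 h replicate A or AC 48 h replicate 5 and Hspa8 without Luc 24 h replicate C. From 4 h to 24 h the share of higher genes was 75.9%, or 52.1% and 48.2% after the 2 rescalings. Dnaja1, Hsph1 and Dnajb1 were still lower then, Hspa8 (-0.51 and -0.56, limma adjusted p = 0.028 and 0.0042) and Hsp90aa1 (-0.50 and -0.55, limma adjusted p = 0.0085 and 0.0038) were called lower after both, and Hsp90ab1 after equal-total rescaling (-0.25, limma adjusted p = 0.043).

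Markers of other cells moved with time in this table too. The cardiomyocyte sum was 51551 and 52868 CPM in sham hearts, 52319 to 61833 CPM in Luc hearts at 4 h, 61072 to 77516 CPM at 24 h and 35116 to 48220 CPM at 48 h. The neutrophil sum was 24.1 and 5.36 CPM in sham hearts, 85.6 to 181 CPM at 4 h, 276 to 1169 CPM at 24 h and 210 to 740 CPM at 48 h. Luc 24 h library A, which held the highest Hspa1a and Hspa1b of its group, also had the highest neutrophil sum. Luc 48 h library 3, the highest of its group in Hspa1a, Hspa1b, Hspb1, Hspa8 and Dnajb1, had a neutrophil sum of 509 CPM, second to the 740 CPM of library 1. At 24 h 8 of 8 neutrophil, 4 of 4 atrial and 2 of 5 fibroblast markers were higher than in sham hearts and 0 lower. Of 7 macrophage markers 2 were higher and 1 lower. Of 8 cardiomyocyte markers 1 was higher and 1 lower, as was the case for 5 endothelial markers. Of all genes tested 25.3% were higher and 8.79% lower. At 48 h 8 neutrophil, 3 atrial, 3 fibroblast and 4 macrophage markers were higher and 0 lower, and 2 cardiomyocyte markers were lower (all genes: 13.7% higher, 16.4% lower). The part of these markers in the members' values was not tested.

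The partner lists in Luc hearts were quiet at 4 h against sham, with 0 of 65 genes called by limma in the 7 lists and 9 at an unadjusted p under 0.05. At 24 h against sham 6 of 18 HSP70 partners were higher, among them Hspbp1 (1.11, limma adjusted p = 0.0060), and 4 of 6 small heat shock proteins, led by Hspb7 (1.09, limma adjusted p = 0.00082). Of the HSP90 partners 1 of 13 was higher, Fkbp5 (3.0, limma adjusted p = 1.7e-05), and 2 were lower, Chordc1 (-1.47, limma adjusted p = 0.0037) and the co-chaperone p23 gene Ptges3 (-0.59, limma adjusted p = 0.013). At 48 h 1 of 13 HSP90 partners was higher, again Fkbp5 (1.49, limma adjusted p = 0.0071), and 5 were lower, among them Fkbp4 (-1.15, limma adjusted p = 0.00064), Ahsa2 (-0.91, limma adjusted p = 0.0041) and Unc45b (-0.80, limma adjusted p = 0.0088), and of the mitochondrial list 0 were higher and 4 lower. Of the small heat shock proteins 2 were higher at 48 h, led by Hspb2 (0.98, limma adjusted p = 0.017), and 0 lower, and of the HSP70 partners 0 were higher and 3 lower. Of the 10 endoplasmic reticulum chaperones 1 was higher at 24 h, and at 48 h 1 was higher (Sdf2l1, 1.39, limma adjusted p = 0.00039) and 1 lower. No CCT subunit was called at either time. Of all genes tested, 25.3% were higher and 8.79% lower than sham at 24 h, and 13.7% and 16.4% at 48 h.

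Between times in Luc hearts the partners moved in both directions. Of all genes tested, 24.5% were higher and 7.8% lower from 4 h to 24 h, and 9.32% and 32.6% from 24 h to 48 h. From 4 h to 24 h 7 of the 65 genes were higher and 12 lower, with Fkbp5 higher by 2.94 (limma adjusted p = 3.4e-06) and 5 of 10 endoplasmic reticulum chaperones lower, among them Pdia4 (-0.95, limma adjusted p = 0.0027) and Hyou1 (-0.84, limma adjusted p = 0.015). From 24 h to 48 h 6 were higher and 30 lower, a comparison in which the median of all genes moved too. Fkbp5 changed by -1.51 (limma adjusted p = 0.0020), the mitochondrial HSP90 Trap1 changed by -0.89 (limma adjusted p = 1.7e-05), and Sdf2l1 was higher by 1.41 (limma adjusted p = 8.9e-05).

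The genes most like the sum of Hspa1a and Hspa1b over these 24 libraries were less close to it than in the uninjected hearts. They were Ier5 (Pearson r = 0.787 among 7709 genes), an immediate early gene, Jun, an AP-1 subunit (0.750), Btg2, an antiproliferative gene (0.746), the cytokine gene Il1b (0.736) and Ier2, another immediate early gene (0.726). Ier5 ran from 8.35 to 12 CPM in sham hearts and from 34.5 to 42.5 CPM in Luc hearts at 4 h. The points share their time groups and carry no p.

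AC modRNA was compared with Luc modRNA at each time, which asks whether the modRNA changed the chaperones after MI. At 4 h and at 24 h no member passed the test. At 48 h Dnaja1 and Hsph1 were higher in AC hearts than in Luc hearts, and for both the AC against Luc difference at 48 h differed from that at 4 h. The inducible HSP70 genes, Hspb1 and the HSP90 genes were not called at any time, although at 48 h Hspb1 was called after either rescaling, both HSP90 genes with array weights, and Hsp90aa1 also after equal-total rescaling.

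Dnaja1 in AC hearts had 82.5, 56.9, 59.4 and 72.1 CPM at 4 h, 47.9, 45.6 and 40.5 CPM at 24 h, and 56.9, 60.0, 67.1 and 77.1 CPM at 48 h (replicates 1, 2, 4 and 5). All 4 AC hearts were below all 4 Luc hearts at 4 h, the groups overlapped at 24 h, and all 4 AC hearts were above all 4 Luc hearts at 48 h. The AC minus Luc difference was -0.54 at 4 h (interval -0.82 to -0.25, unadjusted p = 0.00073 and adjusted p = 1.0 by limma), 0.14 at 24 h (interval -0.19 to 0.47) and 0.55 at 48 h (standard error 0.14, limma adjusted p = 0.010). The difference between the 48 h and 4 h values was 1.09 (standard error 0.19, limma adjusted p = 0.0065). It was called in all 9 alternatives run for it and all 24 fits with a library left out. Fits with only the compared groups or with the replicate number as a block were not run for this difference. At 48 h itself the call was not made without Luc replicate 3 (0.46, limma adjusted p = 0.056) or with the replicate number as a block. The block fit kept only replicates 1, 2 and 4 of each group, so it too left out Luc replicate 3, and AC replicate 5.

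Hsph1 in AC hearts had 65.6, 53.4, 63.0 and 64.9 CPM at 4 h, 46.9, 35.5 and 35.9 CPM at 24 h, and 27.7, 37.7, 44.5 and 50.3 CPM at 48 h. The AC hearts were again all below the Luc hearts at 4 h, and at 48 h the groups overlapped, since Luc replicate 4 (35.8 CPM) exceeded AC replicate 1. The difference was -0.46 at 4 h (interval -0.87 to -0.04, unadjusted p = 0.033 and adjusted p = 1.0 by limma), -0.07 at 24 h (interval -0.55 to 0.41) and 0.78 at 48 h (standard error 0.20, limma adjusted p = 0.012). The call at 48 h was not made without Luc replicate 1 (0.61, limma adjusted p = 0.057) or replicate 3 (0.67, limma adjusted p = 0.060), or with only the compared groups in the model (0.78, limma adjusted p = 0.076). Nor was it made with the replicate number as a block, in a fit that likewise kept only replicates 1, 2 and 4. Between 48 h and 4 h the difference changed by 1.24 (standard error 0.28, limma adjusted p = 0.017). This was called in all 9 alternatives run for it and all fits with a library left out. Fits with only the compared groups or with the replicate number as a block were not run for it.

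**Figure D4:**
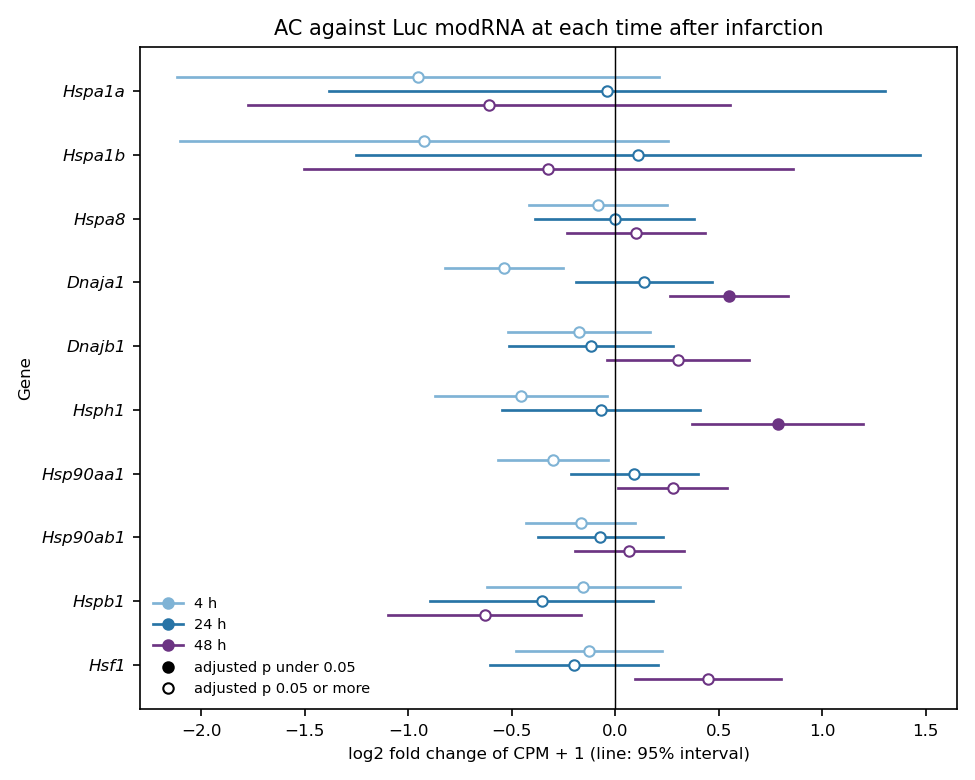
AC minus Luc difference of the 10 genes at 4, 24 and 48 h post-MI (log2 fold change of CPM + 1, with 95% limma intervals); filled points have an adjusted p under 0.05. Only Dnaja1 and Hsph1 at 48 h are filled, and both lie below 0 at 4 h.

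Hspa1a in AC hearts had 16.6, 17.9, 8.61 and 16.4 CPM at 4 h, 7.75, 23.6 and 10.7 CPM at 24 h, and 2.73, 3.57, 2.26 and 15.1 CPM at 48 h. Hspa1b had 24.0, 6.85, 8.22 and 10.4 CPM at 4 h, 5.36, 24.5 and 10.0 CPM at 24 h, and 5.16, 5.75, 4.49 and 15.0 CPM at 48 h. Both genes overlapped with the Luc hearts at every time. The AC minus Luc difference of their sum was -0.93 at 4 h (interval -2.13 to 0.27), 0.04 at 24 h (interval -1.35 to 1.42) and -0.47 at 48 h (interval -1.66 to 0.73). The interval at 24 h held differences of more than 1 log2 unit in either direction.

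Hspb1 at 48 h was at 225, 250.3, 192 and 230.2 CPM in AC hearts, and the 2 lower Luc hearts, 234 and 247 CPM, fell among them. Its difference of -0.63 (interval -1.10 to -0.16) had an adjusted p of 0.061 by limma, was called after both rescalings and without Luc 24 h replicate C or Luc 48 h replicate 2 or 4, and was -0.35 without Luc replicate 3 (limma adjusted p = 0.30). Hsf1 at 48 h was 20.8 ± 2.52 CPM in AC hearts and 15.1 ± 2.54 CPM in Luc hearts (0.45, limma adjusted p = 0.077), and Hsp90aa1 239 ± 37.8 and 196 ± 19 CPM (0.28, limma adjusted p = 0.14). Hspa8, Hsp90ab1 and Dnajb1 differed by 0.10, 0.07 and 0.30 at 48 h, and their intervals included 0.

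In counts, 0 members were called at 4 h, where limma called 0.00796% of genes higher and 0% lower, and 3 members had an unadjusted p under 0.05. At 24 h 0 members were called (0.00796% higher and 0% lower) and 0 had an unadjusted p under 0.05. At 48 h 2 members were called higher and 0 lower (12.1% and 3.27%), and 5 had an unadjusted p under 0.05. Of the tests of whether the AC minus Luc difference changed with time, 24 h against 4 h called 0 members (0.00796% of genes in either direction, 1 member at an unadjusted p under 0.05), 48 h against 4 h called 2 (3.35%), and 48 h against 24 h called 0 (2.56%, 2 members at an unadjusted p under 0.05). The share of higher genes among all calls at 48 h was 78.7%, or 52.2% after median-ratio rescaling, and both members were called under either rescaling. Median-ratio rescaling added Hspb1, called lower, to these 2 members, and equal-total rescaling added Hspb1, called lower, and Hsf1 (0.52, limma adjusted p = 0.042) and Hsp90aa1 (0.35, limma adjusted p = 0.042), called higher.

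Dnajb1 in AC hearts had 66.8, 49.3, 40.8 and 44.3 CPM at 4 h, 30.0, 22.3 and 25.6 CPM at 24 h, and 24.3, 23.3, 23.8 and 36.9 CPM at 48 h, overlapping with the Luc hearts each time. Hsp90aa1 in AC hearts had 236, 219.8, 199 and 219 CPM at 4 h, below all 4 Luc hearts (-0.30, interval -0.56 to -0.04, unadjusted p = 0.027 and adjusted p = 1.0 by limma), and overlapped with them later. For the other members the AC minus Luc difference at 24 h lay between -0.35 (Hspb1, interval -0.89 to 0.18) and 0.11 (Hspa1b, interval -1.25 to 1.47).

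Single libraries stood out across the members, in AC hearts and in Luc hearts. AC 48 h replicate 5 was the highest of its group for 9 of 10 members, whereas it was the highest for 14.2% of all genes tested. AC 4 h replicate 1 was the highest for 7 members (41.5% of genes), and AC 24 h replicate A for 8 (30.7%). Both also had the largest summed CPM of their groups (789483 and 761638). In Luc hearts, 4 h replicate 3 was the lowest of its group for 8 members (32% of genes), and 48 h replicate 2 for 7 (28.2%). These 2 Luc libraries had the smallest summed CPM of their groups (640621 and 508204). The sum of AC 48 h replicate 5 (529968) was not the largest of its group. The part of these sums in the members' order was not tested.

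Other lists moved at 48 h as well, when 12.1% of all genes tested were higher in AC hearts and 3.27% lower. Of 10 endoplasmic reticulum chaperones 5 were higher in AC hearts and 0 lower, led by Pdia4, from 30.7 ± 7.16 to 62.2 ± 7.25 CPM (1.02, limma adjusted p = 0.0023), with Pdia6 (0.77, limma adjusted p = 0.0011) and Calr, the calcium-binding calreticulin (0.77, limma adjusted p = 0.0026). Of 13 HSP90 partners 1 was higher and 2 lower, Fkbp5 among the latter (-1.54, limma adjusted p = 0.0032), of 18 HSP70 partners 2 were higher and 1, Dnaja2, lower (-0.53, limma adjusted p = 0.035), and of 6 small heat shock proteins 0 were higher and 1, Hspb6, lower (-0.55, limma adjusted p = 0.028). No CCT subunit, mitochondrial chaperone or gene of the HSF list was called by limma. At 4 h and at 24 h 0 of the 65 partner genes were called, and 0 had an unadjusted p under 0.05. For the AC minus Luc difference at 48 h against that at 4 h, 4 of the 65 partner genes were called higher and 2 lower, with Pdia4 at 1.42 (limma adjusted p = 0.011), Calr at 0.96 (limma adjusted p = 0.018) and Fkbp5 at -1.73 (limma adjusted p = 0.038).

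Markers of other cells differed between AC and Luc hearts at 48 h. The macrophage sum was 462 to 598 CPM in AC hearts and 229 to 299 CPM in Luc hearts, with 5 of 7 markers higher, the fibroblast sum 1328 to 2086 against 752 to 1165 CPM with 3 of 5 higher, and the neutrophil sum 136 to 205 against 210 to 740 CPM with 3 of 8 lower. Of 8 cardiomyocyte markers 2 were lower, with sums of 25973 to 32969 and 35116 to 48220 CPM. The atrial sum was 1227 to 2966 CPM in AC hearts and 533 to 1169 CPM in Luc hearts, with 1 of 4 markers higher, and of the endothelial markers and immediate early genes 0 were called by limma. These sums of named markers did not overlap between AC and Luc hearts, and their part in the Dnaja1 and Hsph1 differences was not tested.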

How the data were processed

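Poly(A) RNA of left ventricle was sequenced as single 50-base reads. Alignment by the authors used STAR and the mm10 genome, and genes of UCSC RefSeq were counted with the expectation-maximization method of Partek Flow, which divides shared reads; TMM-normalized CPM were deposited. The deposited values of the second table are CPM with 1 added (the lowest value is exactly 1), and 1 was subtracted. Whether strand was used in counting is not given in the sources used here.

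Each table was fitted separately, with all its groups, by limma 3.58.1 in R 4.3.3 (lmFit, eBayes with a trend) on log2(CPM + 1), for the 12487 and 12555 genes whose mean reached 1 CPM. P-values were adjusted by Benjamini-Hochberg over all genes tested, with a threshold of 0.05. No whole reads could be recovered, since only 84.2% of values under 1 CPM in the first table were within 0.05 of whole multiples of the lowest value. The first table holds an estimated 12553519 to 18952669 reads per library, with 1 read worth up to 0.0479 CPM, and the depth of the second is unknown. The script was tested on simulated data.

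The members and gene lists were chosen with earlier results of these data known. Named were all members, in each comparison up to 3 partner genes with the largest called change in each direction, and the 5 genes at a mean of 10 CPM or more that were most correlated with the sum of Hspa1a and Hspa1b. Same-numbered libraries were not treated as pairs. The alternatives were a pseudocount of 0.1, other CPM filters (none, or 10), no trend, rescaling by median ratios or to equal totals, array weights, only the compared groups, no subtraction, Hspa1a and Hspa1b as 1 row, a replicate block, and each library left out. Changes of the AC minus Luc difference between times were not fitted with only the compared groups or with a replicate block. Block fits used only the compared groups and the libraries whose number or letter occurs in both, so they also rest on fewer libraries. The groups of the second table rest on the labels alone.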

Additional observations from a re-analysis of the deposited data

Results flagged for a closer look

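In groups of 4 libraries, the highest or lowest value stood apart from the others (a gap of more than 0.829 of the group's range) in 8 of 50 checks. The cutoff is set for about 1 in 20 in independent checks of normally distributed values. These checks were not independent, since Hspa1a and Hspa1b share reads, so an excess cannot be read from the count. Hspa1a was 415 CPM in uninjected 24 h library D, against 254 to 274 CPM in the other 3, and 8.61 CPM in AC 4 h replicate 3, against 16.4 to 17.9 CPM. In AC 48 h replicate 5 Hspa1a was 15.1 CPM (others 2.26 to 3.57), Hspa1b 15.0 CPM (4.49 to 5.75) and Dnajb1 36.9 CPM (23.3 to 24.3). In Luc 48 h replicate 3 Hspa1a was 27.2 CPM (3.14 to 5.58) and Hspa1b 38.3 CPM (2.73 to 7.29). Hsp90ab1 was 854 CPM in AC 48 h replicate 1 (1068 to 1082).

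The AC minus Luc difference differed between 48 h and 4 h by 1.09 for Dnaja1 and 1.24 for Hsph1 (limma interaction). In uninjected hearts the change from sham differed between 24 h and 4 h, which is the 24 h against 4 h contrast itself, by 3.48 for Hspa1a, 3.45 for Hspa1b, 3.25 for Hspb1, 2.37 for Hsp90aa1, 1.43 for Hsph1, 1.28 for Hspa8, 1.26 for Dnaja1, 1.26 for Dnajb1 and 0.61 for Hsp90ab1.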

How the results depend on the processing

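With array weights the number of members called was 1 in place of 0 for AC against Luc at 4 h, 7 in place of 2 at 48 h, 3 in place of 6 for Luc 48 h against sham, 8 in place of 4 for Luc 24 h against 4 h, and 6 in place of 2 and 1 in place of 0 for the 48 h against 4 h and 48 h against 24 h differences of AC minus Luc. Equal-total rescaling gave 5 for AC against Luc at 48 h and 2 for Luc 48 h against 24 h, where the main count was 5 and Hsp90aa1 reversed to 0.35. With only the compared groups these counts were 1 and 3. With each library left out, the count ran from 2 to 4 for uninjected 4 h against sham, 0 to 4 for AC against Luc at 48 h, 3 to 6 for Luc 4 h against sham, 2 to 4 for Luc 24 h against sham, 3 to 6 for Luc 48 h against 24 h, and 0 to 1 for the 48 h against 24 h difference. These counts moved by more than 1.5 times without library C, D or E of the 4 h hearts or sham library H or I (2, uninjected 4 h), without Luc 48 h replicate 1, 2 or 3 (1, 4 and 0, AC against Luc at 48 h), without sham replicate 1 (3 and 2, Luc 4 h and 24 h against sham), and without Luc 24 h replicate D or Luc 48 h replicate 2 or 4 (3, Luc 48 h against 24 h). The cause of these shifts was not tested. Shared numbers did not pair the libraries (no comparison with 3 or more pairs had all correlations over 0.1), and with the number as a replicate block 0 members were called for AC against Luc at 48 h, with Dnaja1 at 0.37 and Hsph1 at 0.55. The block also ended the calls of Hsp90ab1 at uninjected 24 h against sham (0.51) and against 4 h (0.53) and of Dnajb1 (0.65) and Hsp90ab1 (-0.40) at Luc 48 h against sham. Counts over all genes moved by more than 1.5 times too. Array weights called 2500 genes in place of 296 at uninjected 4 h, 6 in place of 1 and 3178 in place of 1926 for AC against Luc at 4 h and 48 h, 2227 in place of 3774 for Luc 48 h against sham, 6147 in place of 4058 for Luc 24 h against 4 h, and 1621 in place of 421 and 991 in place of 322 for the differences of 48 h against 4 h and 24 h. With only the compared groups 715 were called at uninjected 4 h, and 580 (194 before) and 1504 for Luc 4 h and 48 h against sham, and the replicate block gave 258 for AC against Luc at 48 h and 415 and 1031 for these Luc comparisons. The differences of AC minus Luc gave 235 and 205 with a pseudocount of 0.1, 777 for the former with equal totals and 495 for the latter with no filter. A filter at a mean of 10 CPM left 7695 and 7719 genes to test and so fewer to call: 5316 in place of 8236 and 5173 in place of 7976 at uninjected 24 h against sham and 4 h, 823 for AC against Luc at 48 h, 122, 2817 (4275 before) and 2433 for Luc 4 h, 24 h and 48 h against sham, 2548 for Luc 24 h against 4 h, and 103 and 71 for the differences. The second table's unknown depth limits Hspa1a and Hspa1b in its sham hearts, each under 2 CPM.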
